A study of Mus musculus with 8 samples.

Results

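Perilipins coat the surface of the lipid droplet, and lipolytic enzymes release fatty acids from the triglyceride inside it. The genes examined were the 5 perilipins Plin1, Plin2, Plin3, Plin4 and Plin5, the 3 lipases Pnpla2, Lipe and Mgll, the coactivator Abhd5 and the inhibitor G0s2. They were chosen by gene symbol and make up 10 of the 19348 genes in the count table. RNA-seq had been carried out on liver and epididymal white adipose tissue (eWAT) of male C57BL/6 mice aged 12 weeks, killed after a fast of 16 h on normal chow, with 2 libraries per tissue labelled Crtc1-/- (here KO-labelled) and 2 labelled Crtc1+/+ (WT-labelled). Crtc1 is a cofactor of the transcription factor CREB. The Crtc1-/- line was a whole-body knockout made by CRISPR/Cas9 with guides to exons 2 and 4, and the Crtc1+/+ mice were littermates from crosses of heterozygous mice. The study asked how loss of Crtc1 changed transcription in these tissues.

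In adipocytes, PLIN1 holds ABHD5 on the droplet of the unstimulated cell. Protein kinase A phosphorylates PLIN1 and hormone-sensitive lipase (encoded by Lipe), ABHD5 is released, and it activates adipose triglyceride lipase (encoded by Pnpla2). Pnpla2 then removes a fatty acid from triglyceride, Lipe acts on diglyceride, Mgll acts on monoglyceride, and G0S2 binds and inhibits adipose triglyceride lipase. PLIN2 coats droplets in most cells and is the common perilipin of hepatocytes, PLIN5 is known from cells that oxidise fatty acids, and PLIN3 and PLIN4 can move to young droplets from the cytosol.

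The libraries held between 16560085 and 19721481 counts, and replicates of a group differed by more than sampling noise. Over the whole Crtc1 gene, the level was 58.5 and 33.6 CPM (counts scaled to library size, with TMM factors of the tissue) in KO-labelled eWAT and 32.6 and 33.7 in WT-labelled eWAT. In liver it was 22.1 and 17.98 against 11.7 and 9.86 CPM. The count covers all exons, so it does not check a deletion between exons 2 and 4, and it was not lower in the KO-labelled libraries. Tissue labels were set against marker genes. The 18 adipocyte markers took 4.72% and 2.44% of counts in KO-labelled eWAT, 0.325% and 0.522% in WT-labelled eWAT, and 0.264% to 0.445% in liver, where several of these genes are also transcribed. Adipoq, which encodes adiponectin and defines the adipocyte, stood at 2803 and 1589 CPM in KO-labelled eWAT, 124 and 226 CPM in WT-labelled eWAT, and no more than 0.629 CPM in liver. The eWAT WT-labelled libraries also held 7.85% and 9.11% of counts in 16 epididymis markers, all 16 of them detected, against 0.00533% and 0.00124% in the KO-labelled ones, where 4 and 5 of the markers were at 0. Hepatocyte markers, 13 genes, took 10.9% of counts in KO-labelled eWAT replicate 2 and at most 0.666% in the other eWAT libraries, against 19.8% to 24.0% in liver. In bulk tissue, fewer cells of a type and less RNA per cell cannot be told apart.

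The sequences below show where Pnpla2 was probed by the study's PCR, why Plin4 differs from the other perilipins in length, and which short motifs lie at the starts of these genes. The Pnpla2 primers, which the study designed for quantitative PCR, matched 5 transcripts of GENCODE (GRCm38), each of them a Pnpla2 transcript. Both lie in exon 1 and bound a product of 140 bp, the forward primer at chr7:141455287-141455306 and the reverse primer, which reads the opposite strand, at chr7:141455406-141455426. The capitals mark the whole primer.
Pnpla2 forward primer: ATGTTCCCGAGGGAGACCAA
Pnpla2 reverse primer: GAGGCTCCGTAGATGTGAGTG

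Plin4 is built on a coding repeat. Of the 10 members, Plin4 had the longest coding sequence (4212 nt), of which a stretch of 2631 nt (62.5%) was at least 60% identical between neighbouring units of 99 nt. The pair of neighbouring units most alike, in exon 5 on the minus strand at chr17:56106235-56106333 and chr17:56106136-56106234, did not differ at any of the 99 bases. The unit is given once, in lower case since no base differs. When each coding sequence was shifted along itself, the best match was 59.8% for Plin4, at a shift of 297 nt, and 29.3% to 35.3% for the other members.
Plin4 repeat unit: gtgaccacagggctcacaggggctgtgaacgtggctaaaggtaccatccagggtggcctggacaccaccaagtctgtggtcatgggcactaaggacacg

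Promoters were searched on both strands, from 250 bases before to 50 after the start, in RefSeq (GRCm38.p6), where the 10 genes have 13 promoters. The CRE is the element bound by CREB. No member promoter held the whole CRE, TGACGTCA, found in 1.79% of 32851 promoters, or the PPAR direct repeat (AGGNCA, then any base, then AGGNCA), found in 0.381%. The CRE core TGACG, which is part of the whole CRE, lay in 3 member promoters (G0s2, Abhd5 and Mgll) and in 20.8% of all promoters. The E-box CACGTG, a hexamer bound by basic helix-loop-helix factors, lay in 3 member promoters (Plin2, Mgll and Lipe) and in 7.15% of all. These matches describe letters only. Below, capitals mark the motif (the CRE core of G0s2 reads on the other strand), at chr1:193273410-193273438 for G0s2, chr9:122351468-122351512 for Abhd5, chr4:86670058-86670083 for Plin2, chr6:88724348-88724393 for Mgll and chr7:25396117-25396162 for Lipe, each written 5′ to 3′ on the strand of the gene.
G0s2: acacCGTCAcctggtggtctcctcttcag
Abhd5: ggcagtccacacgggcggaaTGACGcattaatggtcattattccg
Plin2: gccccaggcagctgggctatCACGTG
Mgll: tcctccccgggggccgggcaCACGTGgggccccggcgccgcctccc
Lipe: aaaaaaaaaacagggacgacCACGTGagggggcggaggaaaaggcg

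The members are spread over 6 chromosomes, with 1 group of neighbours. On chromosome 17, Plin4 (chr17:56100587-56109948), Plin5 (chr17:56111597-56117606) and Plin3 (chr17:56278962-56290511) share the minus strand, with 1648 bp between Plin4 and Plin5 and 161355 bp between Plin5 and Plin3. Plin1 (chr7:79721164-79732904), Pnpla2 (chr7:141455188-141460743) and Lipe (chr7:25379527-25398486) lie far apart on chromosome 7. Plin2 (chr4:86626910-86670217), Mgll (chr6:88724412-88828360), Abhd5 (chr9:122351616-122381524) and G0s2 (chr1:193272160-193273188) stand alone. A second row of the count table carried the symbol Plin2. Its identifier belongs to the pseudogene Gm12551, which overlaps Plin2 and held 0 to 11 counts a library, so it was not used. In GENCODE, Plin4 overlaps Hdgfl2, G0s2 overlaps Lamb3, and Lipe, Mgll and Abhd5 overlap antisense RNAs, all on the other strand. Mgll also overlaps further annotated genes, of which Gm44005, Gm43999 and Gm44001 lie on its own strand. The counting is not stated to use strand, so reads in the shared stretches cannot be told apart.

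In eWAT, 8 of the 10 members were higher in the KO-labelled libraries at an adjusted p under 0.05, and none was lower. These were Plin2, Plin4, Plin5, Pnpla2, Lipe, Mgll, Abhd5 and G0s2, with differences from 2.14 to 4.05 on the log2 scale. Plin1 was higher in value but did not pass, and Plin3 was at about the same level in both groups. All 10 members passed the filter on low counts in eWAT, and of all 15391 genes tested there 12.2% were called, 6.65% higher and 5.54% lower. The median difference was 3.38 over the members and -0.05 over all genes (log2). In the libraries on which the calls rest, adipocyte markers moved the same way, with 18 of 18 above 0, 13 called higher, 0 called lower and a median of 3.58. So did 8 endothelial markers, with 8 called higher and 0.413% and 0.223% of counts in KO-labelled eWAT against 0.0341% and 0.0340% in WT-labelled eWAT. Of 8 macrophage markers, 7 were above 0, 3 were called higher and none lower, with 0.0762% and 0.0372% of counts against 0.0226% and 0.0119%. Of 13 hepatocyte markers, 13 were above 0 and 1 was called higher, with a median of 4.37. Epididymis markers moved the other way, with 15 of 16 called lower and a median of -13.0. The part of these markers in the members' differences was not tested beyond the scaling on adipocyte markers and the removal of epididymis markers given after the levels.

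Among the perilipins, Plin2, Plin4 and Plin5 rose in eWAT, and the differences of Plin2 and Plin4 lay within their SEs of each other. Plin2 stood at 673 and 848 CPM in the KO-labelled libraries and at 55.2 and 36.7 CPM in the WT-labelled ones. The lower of the first pair was above the higher of the second by more than either pair's spread, and the log2 difference was 4.05 (SE 0.43, adjusted p = 0.0170, edgeR's quasi-likelihood test). For Plin4, found mainly in white fat, the levels were 2015 and 1956 CPM against 94.9 and 189 CPM. The groups did not overlap, as was the case for 66.6% of all genes, and Plin4 rose by 3.81 (SE 0.54, edgeR adjusted p = 0.0236).

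Plin5 was the lowest perilipin in eWAT by CPM, at 42.6 and 70.7 CPM in KO-labelled libraries and 7.23 and 7.21 CPM in the WT-labelled ones. The WT-labelled pair was nearly level, and Plin5 rose by 2.97 on the log2 scale (SE 0.39, edgeR adjusted p = 0.0214). Plin1, the perilipin that guards the adipocyte droplet, stood at 340 and 200 CPM in KO-labelled libraries and at 8.57 and 43.1 CPM in the WT-labelled ones. The groups did not overlap, but the WT-labelled pair differed by 5.03 times. Its log2 difference of 3.38 had an SE of 0.86 and an adjusted p of 0.0669 by edgeR, and DESeq2 gave 3.37 with an adjusted p of 0.000149. Plin1 thus had the widest SE of the members in eWAT. Plin3, a perilipin of most cells, stood at 92.1 and 78.9 CPM against 105 and 96.9 CPM. Its log2 difference was -0.24 (SE 0.26, edgeR adjusted p = 0.540).

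All 3 lipases rose in eWAT. Pnpla2 stood at 5529 and 3235 CPM in KO-labelled libraries and at 314 and 392.3 CPM in the WT-labelled ones, a log2 difference of 3.63 (SE 0.57, edgeR adjusted p = 0.0269). It had the highest CPM of the members in both KO-labelled libraries. Lipe stood at 2290 and 1545 against 92.2 and 142 CPM, and rose by 4.03 (SE 0.52, edgeR adjusted p = 0.0202). Mgll stood at 3563 and 2707 against 356 and 324 CPM, and rose by 3.20 (SE 0.47, edgeR adjusted p = 0.0251). In each lipase KO-labelled replicate 1 was higher than replicate 2, the one with 10.9% of counts in hepatocyte markers, whereas Plin2, Plin5 and G0s2 were higher in replicate 2. The part of hepatocyte transcripts in these levels was not tested, and without that library 8 members were still called.

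Both regulators of adipose triglyceride lipase rose in eWAT. Abhd5, its coactivator, stood at 225 and 138 CPM against 40.0 and 42.6 CPM, and rose by 2.14 (SE 0.35, edgeR adjusted p = 0.0290), the smallest of the 8 differences called. G0s2, its inhibitor, stood at 483 and 550 CPM against 62.4 and 37.3 CPM, and rose by 3.37 (SE 0.42, edgeR adjusted p = 0.0194).

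The calls in eWAT were lost with the replicate number as a block, and they rest on both WT-labelled libraries. The 8 log2 differences stayed large, from 2.08 (Abhd5) to 4.40 (Plin2) without WT-labelled replicate 1. They ran from 2.21 (Abhd5) to 4.41 (Plin4) without WT-labelled replicate 2. Without replicate 1 or without replicate 2 of that group, 0 members and 0% of all genes were called by edgeR, and 3 members met the study's threshold (absolute log2 fold change over 1 and unadjusted p under 0.01), which 8 members and 15.9% of all genes met with the 4 libraries. Leaving out either KO-labelled library left 8 called.

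**Figure D1:**
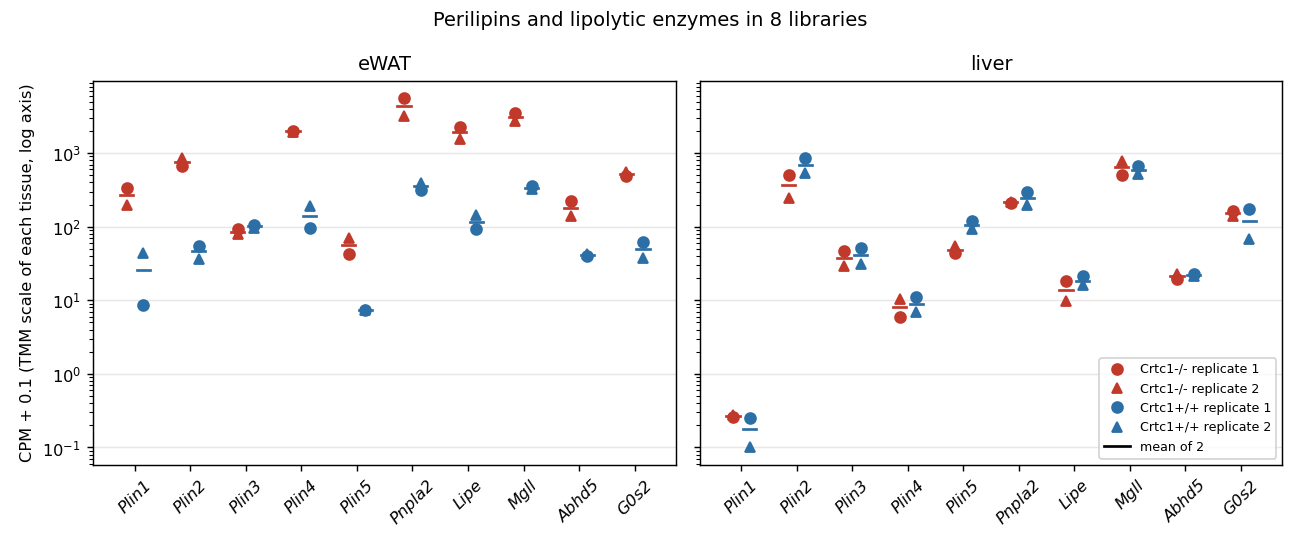
CPM of each member in every library, on a log axis after adding 0.1, with eWAT on the left and liver on the right. Circles and triangles are replicates 1 and 2, red for the KO label and blue for the WT label, and bars are means of 2. In eWAT the red points stand above the blue for every member but Plin3, and in liver Plin1 lies near 0 in all 4 libraries.

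Relative to the summed counts of 18 adipocyte markers, most members in eWAT showed no called difference. The libraries were scaled so that this sum was level, which leaves the single markers apart (log2 differences before scaling from 0.60 to 4.66). Plin1, Plin2, Plin4, Pnpla2 and Lipe then stayed above 0, at 0.19, 0.65, 0.56, 0.22 and 0.68 on the log2 scale. Plin5, Mgll, Abhd5 and G0s2 turned to -0.31, -0.22, -1.30 and -0.06. None of these 9 passed the test. Abhd5 came nearest, with an edgeR adjusted p of 0.0643. Plin3 was the 1 member called, at -3.65 (edgeR adjusted p = 1.56e-05). On that scale the median over all genes moved to -3.43 from -0.05 and 87.3% of genes were called. This scaling shifts every gene by about the same amount, so the signs say only where a member stood relative to the marker sum. Removing the 16 epididymis markers from the counts left 8 members called. Other transcripts of the epididymis stayed in the counts, so this does not show how far that tissue affected the calls.

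**Figure D2:**
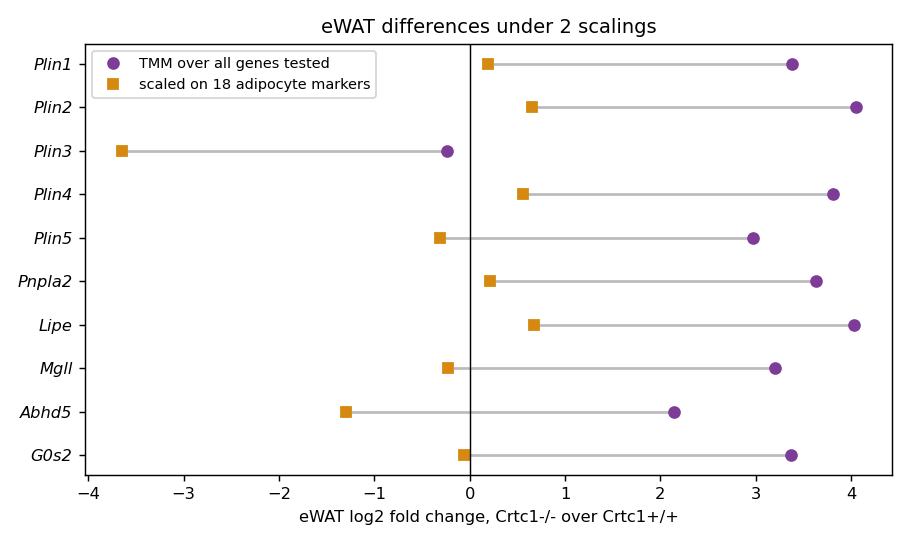
Log2 difference of each member in eWAT, KO-labelled over WT-labelled, with TMM over all genes tested (circles) and with the libraries scaled on 18 adipocyte markers (squares). The scaling moves 9 members from between 2.14 and 4.05 to between -1.30 and 0.68, and moves Plin3 from -0.24 to -3.65.

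In liver, none of the 9 members tested was called by edgeR, where 0.0854% of 11707 genes were. At an unadjusted p under 0.05 there were 2, Plin2 and Plin5, both lower in KO-labelled libraries, beside 2029 of all 11707 genes. DESeq2 called 1, Plin5, and 2.66% of all genes. The median difference was -0.15 over the members and 0.00 over all genes (log2). Plin1 did not pass the filter on low counts, with 3 counts in 3 of the 4 libraries and 0 in the other (WT-labelled replicate 2, where 0 counts allow up to 0.153 CPM, by counting error only).

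Plin5 gave the lowest p of the members in liver. It stood at 43.8 and 54.0 CPM in KO-labelled libraries and at 120 and 91.9 CPM in the WT-labelled ones, and the groups did not overlap, as for 52.1% of all genes. The log2 difference was -1.11 (SE 0.27, unadjusted p = 0.00229 in edgeR's fit, adjusted p = 0.134). It met the study's threshold, as did 4.27% of all genes. DESeq2 gave -1.11 with an adjusted p of 0.010, and edgeR without the filter on low counts gave an adjusted p of 0.0425. Over the fits that left out 1 library, the difference ranged from -1.30 to -0.92. Without KO-labelled liver replicate 1, both Plin5 (adjusted p = 0.0270) and Plin2 (adjusted p = 0.000235) were called by edgeR, as were 12.5% of all genes.

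Plin2, the most abundant perilipin transcript of liver, stood at 498 and 242 CPM in KO-labelled libraries and at 857 and 533 CPM in the WT-labelled ones. The groups did not overlap, but replicates differed by 2.06 times and 1.61 times, and the log2 difference of -0.91 had an SE of 0.38 and an edgeR adjusted p of 0.266. With 1 library left out, it ranged from -1.51 without KO-labelled replicate 1, where it was called (edgeR adjusted p = 0.000235), to -0.49 without KO-labelled replicate 2, where it was not (edgeR adjusted p = 0.526). The other members lay closer together. Pnpla2 stood at 212 and 215 against 292 and 197 CPM, Mgll at 509 and 772 against 670 and 516 CPM, and G0s2 at 166 and 140 against 173 and 67.3 CPM, and in each of these the groups overlapped. Abhd5 stood at 19.2 and 23.0 against 22.3 and 21.3 CPM. Plin3 (46.3 and 29.0 against 50.7 and 31.5 CPM), Lipe (18.1 and 9.69 against 21.0 and 15.9 CPM) and Plin4 (5.87 and 10.2 against 10.99 and 6.77 CPM) overlapped as well. The log2 differences of these 7 members ran from -0.41 in Lipe to 0.35 in G0s2, with SEs of 0.25 to 0.40.

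**Figure D3:**
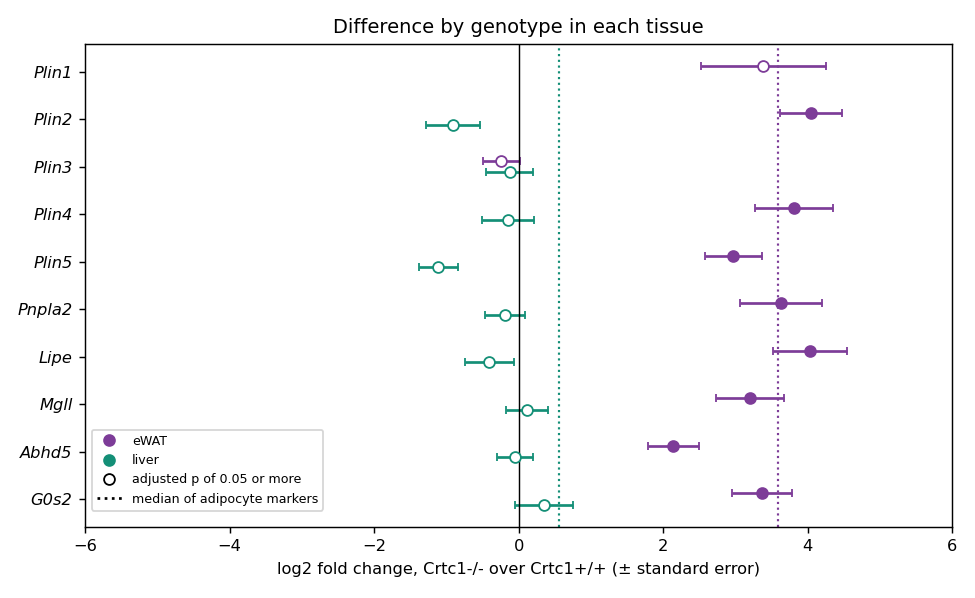
Log2 difference of each member between KO-labelled and WT-labelled libraries in eWAT (purple) and liver (green), with bars of 1 standard error and filled points at an adjusted p under 0.05 (edgeR). Dotted lines are the medians of the adipocyte markers, 3.58 in eWAT and 0.56 in liver, and every filled point lies in eWAT.

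The difference between the tissues was tested as an interaction over the 8 libraries. The change by genotype was larger in eWAT than in liver for 7 of 10 members, and 3.78% of 15587 genes were called in that direction (6.94% in either). Plin2 led, with a gap of 4.88 (SE 0.76, edgeR adjusted p = 0.0171), followed by Lipe at 4.34 (SE 0.64, edgeR adjusted p = 0.0145) and Plin5 at 4.03 (SE 0.51, edgeR adjusted p = 0.0109). Plin4, Pnpla2, Mgll and Abhd5 gave 3.89, 3.73, 3.004 and 2.09. G0s2 missed the threshold at 2.95 (edgeR adjusted p = 0.0576), and Plin1 and Plin3 were not called either. With library totals as the scale 5 members were called, without Mgll (edgeR adjusted p = 0.0601) and Abhd5 (edgeR adjusted p = 0.0778). The interaction count also depended on single libraries. Leaving out either KO-labelled eWAT library left 7 or 8 members called, leaving out WT-labelled eWAT replicate 1 or either KO-labelled liver library left 1, and leaving out WT-labelled eWAT replicate 2 or either WT-labelled liver library left 0.

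Each member had its own distribution over the tissues. The WT-labelled eWAT libraries held 0.325% and 0.522% of counts in adipocyte markers and 7.85% and 9.11% in epididymis markers. The part of these shares in the differences between tissues was not tested. Between the WT-labelled libraries, Plin1, Plin4 and Lipe were higher in eWAT and Plin2, Plin5, Mgll and G0s2 were higher in liver. These were 7 of 10 called, where 54.9% of all genes were (35.0% higher in eWAT and 19.8% lower). Plin1, with 3 and 0 counts in WT-labelled liver, passed the filter over 8 libraries through eWAT alone, so its call could go only 1 way. Plin2 was 35.0-fold higher in liver (log2 difference -5.13, SE 0.61, edgeR adjusted p = 0.00126) and Plin5 34.0-fold higher (-5.09, SE 0.41, edgeR adjusted p = 0.000526). In the other direction, Plin4 was higher in eWAT by 2.77 (SE 0.51, edgeR adjusted p = 0.00502) and Lipe by 1.45 (SE 0.44, edgeR adjusted p = 0.0296). Mgll and G0s2 were lower in eWAT, at -2.02 and -2.48, and these 2 calls were lost when libraries were scaled by their totals (-0.62 and -1.08), a scale on which the median over all genes moved from 0.607 to 2.003. On that scale Plin3 (1.48, edgeR adjusted p = 0.00940) and Abhd5 (1.11, edgeR adjusted p = 0.0248) were called higher in eWAT. That made 5 members higher and 2 lower, where 75.9% of all genes were called. Plin2 and Plin5 were lower in eWAT by less, at -3.73 and -3.69. Without WT-labelled eWAT replicate 2 or WT-labelled liver replicate 1, 4 members were called.

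Between the KO-labelled libraries, 5 members were higher in eWAT and none lower, where 18.9% of all genes were higher and 8.89% lower. These were Plin1, Plin4 (6.66, SE 0.61), Lipe (5.79, SE 0.53), Pnpla2 (3.04, SE 0.46) and Abhd5 (1.79, SE 0.25), all with edgeR adjusted p of 0.00458 or less. Plin1, with 3 counts in each KO-labelled liver library, again passed the filter through eWAT alone. Plin2, at -0.25 (SE 0.51), and Plin5, at -1.05 (SE 0.35, edgeR adjusted p = 0.0618), were not called. Plin2 turned to 0.85 when libraries were scaled by their totals, where 7 members were higher, Mgll and G0s2 among them. On that scale 45.7% of all genes were called, against 27.8% in the main fit. DESeq2 called 6 members higher and 1, Plin5, lower, and edgeR with upper-quartile scaling 5 higher and Plin5 lower. Of all genes they called 33.4% and 28.9%. With 1 library left out, Plin5 ranged from -1.61 to -0.66. KO-labelled eWAT held 0.597% (replicate 1) and 10.9% (replicate 2) of counts in hepatocyte markers, and their part in the differences between tissues was not tested. These comparisons use the same libraries as those by genotype. For Plin1, which had 9070 counts in KO-labelled eWAT and 6 in the 2 liver libraries of that label, the ratio of eWAT to liver was 676 (exact 95% counting interval 311 to 1844). With the WT label it had 1010 and 3 counts, a ratio of 139 (47.6 to 677). These intervals cover counting error only.

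Per transcript length, the make-up of the perilipins differed by tissue and, in eWAT, by label. Levels of different genes were compared as FPKM, fragments scaled to transcript length and library total. The 5 perilipins summed to 994 and 840 FPKM in KO-labelled eWAT, 126 and 144 in WT-labelled eWAT, 352 and 203 in KO-labelled liver and 593 and 371 in WT-labelled liver. In all 4 liver libraries Plin2 came first, with 74.4% to 85.8% of that sum, and Plin5 second, with 7.31% to 17.4%. Plin4 held at most 0.895% there, and Plin1 at most 0.0492%.

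In KO-labelled eWAT, Plin2 held 39.1% and 48.6% of the perilipin FPKM, Plin4 34.6% and 32.5%, and Plin1 19.5% and 11.1%. With the WT label, Plin3 came first, with 47.1% and 36.8%, against 4.52% and 3.78% with the KO label. Plin4 followed Plin3 in replicate 2 (24.5%) and Plin2 did in replicate 1 (29.9%), so the order behind Plin3 differed between these replicates. By CPM Plin4 stood above Plin2 in each eWAT library, whereas per length Plin2 stood above Plin4 in both KO-labelled libraries and in 1 of 2 WT-labelled libraries. The mean share over the 4 libraries of a tissue differed between eWAT and liver for Plin1 (13.5% against 0.0225%), Plin2 (33.5% against 81.7%), Plin4 (26.6% against 0.446%) and Plin5 (3.29% against 12.3%), each with p = 0.0286 in a two-sided exact permutation test, the smallest that 4 against 4 can give, and 0.0357 after adjustment over 5 tests. For Plin3 the test gave 0.371 (exact permutation test). The liver share of Plin1 rests on 3 counts or 0 in a library. These tests, and those of the ratios below, pool both labels and treat the 8 libraries as independent. The paper describes 2 mice per genotype and a piece of liver and eWAT, so the tissues may share mice. A test paired by mouse was not run, and these p-values assume that no mouse gave both tissues. Between genotypes, 2 against 2 cannot go below an exact permutation p of 0.333, so those shares stand as values.

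**Figure D4:**
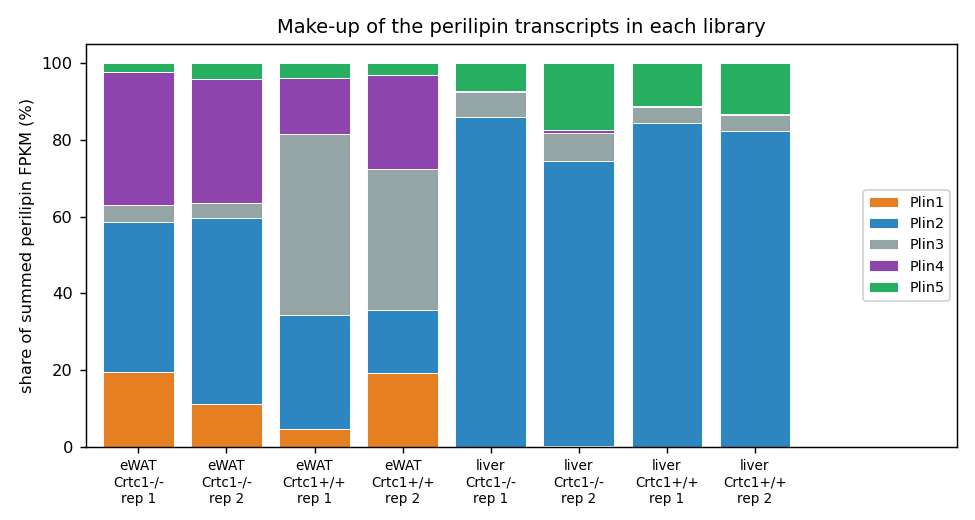
Share of each perilipin in the summed perilipin FPKM of each of the 8 libraries, in percent. Plin2 fills 74.4% to 85.8% of the 4 liver bars, Plin2 and Plin4 lead the KO-labelled eWAT bars, and Plin3 leads the WT-labelled eWAT bars.

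The balance between the lipases and their regulators also differed by tissue. Per length, Lipe stood at 0.362 ± 0.077 of Pnpla2 in eWAT and at 0.0665 ± 0.0170 in liver (SD, n = 4; exact permutation p = 0.0286, 0.0381 after adjustment over 4 tests). Mgll stood at 0.640 ± 0.152 of Pnpla2 in eWAT and at 2.04 ± 0.47 in liver, and G0s2 at 0.491 ± 0.195 and 2.11 ± 0.65, with the same p-values. Thus all 4 liver libraries held more FPKM of the inhibitor G0s2 than of Pnpla2, from 1.23 to 2.79 times, and all 4 eWAT libraries held less, from 0.311 to 0.710 times.

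Abhd5 stood at 0.0664 ± 0.0372 of Pnpla2 in eWAT and 0.0804 ± 0.0138 in liver (SD, n = 4; exact permutation p = 0.514). Within eWAT the ratio was 0.0338 and 0.0355 in KO-labelled libraries and 0.106 and 0.0903 in the WT-labelled ones. The replicates were close together and the groups apart, but 2 against 2 cannot be tested below an exact permutation p of 0.333. The ratios of G0s2 to Pnpla2 overlapped between labels in eWAT, at 0.311 and 0.599 against 0.710 and 0.343, as did those of Mgll, at 0.478 and 0.625 against 0.844 and 0.614. Lipe stood at 0.392 and 0.451 of Pnpla2 with the KO label and at 0.270 and 0.337 with the WT label.

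**Figure D5:**
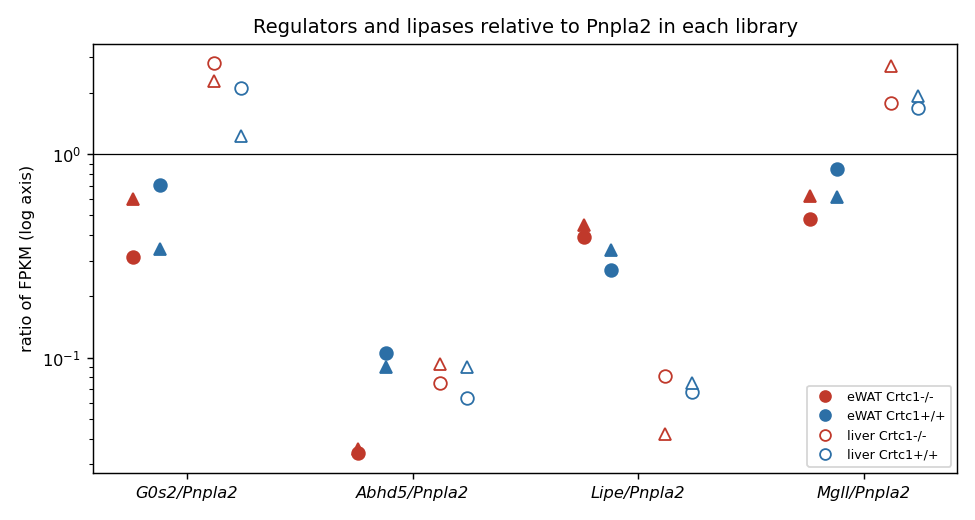
FPKM of G0s2, Abhd5, Lipe and Mgll relative to Pnpla2 in each library, on a log axis, with filled points for eWAT, open points for liver and the line at a ratio of 1. G0s2 and Mgll lie above 1 in liver and below 1 in eWAT, Lipe is higher in eWAT, and the 2 lowest Abhd5 points are KO-labelled eWAT.

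The other genes of the pathway were read from lists, and their counts stand beside the 12.2% of all genes called in eWAT. Of 18 other lipid droplet proteins, 6 rose in eWAT and none fell, with a median of 2.09 on the log2 scale. Fitm2, which buds droplets from the endoplasmic reticulum, rose by 3.11, Cidec, which fuses droplets in adipocytes, by 4.04, Dgat2, which makes triglyceride, by 2.64 and the caveolar protein gene Cav1 by 2.84 (edgeR adjusted p from 0.0208 to 0.0296). In liver 0 of 16 were called. The genes with the smallest p there were Fitm2, Cideb, a relative of Cidec in hepatocytes, Cidec and Spg20, at -1.12, 0.62, -1.04 and -0.65 (edgeR adjusted p from 0.148 to 0.276).

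Of 16 other lipases and carriers of lipolysis products, 7 rose in eWAT and none fell, with a median of 2.08. Aqp7, the channel through which adipocytes release glycerol, stood at 353 and 291 CPM against 14.0 and 16.8 CPM, and rose by 4.38 (SE 0.34, edgeR adjusted p = 0.0155). The fatty acid carrier Fabp5 rose by 4.33, and the carboxylesterases Ces1f and Ces1d by 2.91 and 2.34. In liver, where 0 of 15 were called, Ces1d and Ces1f stood at -1.10 and -1.04 (edgeR adjusted p = 0.131 and 0.173), and the median of the list was -0.50.

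Among 24 genes of the hormonal control of lipolysis, 11 rose in eWAT and none fell, with a median of 1.42. They included the adenylyl cyclase Adcy5 (3.13), the natriuretic peptide receptor Npr1 (3.52) and the antilipolytic receptors Hcar2 (5.01) and Hcar1 (4.59), so genes that promote and genes that restrain lipolysis were both called. Of 12 transcription factors, 4 rose, namely Cebpa (3.10) and Pparg (3.52), which drive adipocyte differentiation, Rxra (2.32), the partner of Pparg, and Foxo1 (1.46), and none fell. In liver 0 genes of these last 2 lists were called by edgeR. At an unadjusted p under 0.05 there were 2 of 15 and 1 of 12, beside 2029 of all 11707 genes. Cidec, Dgat2, Aqp7, Cebpa and Pparg are also on the list of adipocyte markers, and the part of the adipocyte share of counts in these differences was not tested.

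Across the 8 libraries, members fell into patterns, given here as a description of points that share tissue, library and depth. The log2 CPM of Plin1 and Plin4 correlated at r = 0.97, of Plin4 and Lipe at 0.97, of Plin2 and Plin5 at 0.95, of Pnpla2 and Abhd5 at 0.99 and of Mgll and G0s2 at 0.94, whereas Plin1 and Plin5 correlated at -0.60 (Pearson, n = 8). Of all genes in the table, those most like Plin1 were Fosl2, Fabp4 and Rasgrf2 (r = 0.995, 0.993 and 0.992), those most like Plin2 were Rtf2, Fignl2 and St6galnac6 (r = 0.997, 0.995 and 0.995), and those most like Pnpla2 were Iqsec2, Abhd5 and Pola2 (r = 0.994, 0.991 and 0.991).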

How the data were processed

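RNA was sequenced from liver and eWAT, with 2 libraries per tissue and genotype. The labels do not say whether liver and eWAT with 1 number came from 1 mouse. The paper describes 2 mice of each genotype and a piece of liver and eWAT, so the tissues may share mice. The interaction, the tissue contrasts and the permutation tests treat the libraries as independent. The authors deposited estimated counts per gene, of which 5.44% to 9.98% of values per library were not whole, and FPKM, scaled to transcript length and library total. The submitters' processing notes name HISAT, Bowtie2 and the build GRCm38.p6, and the counting tool is not given in the sources used here.

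Counts were rounded, filtered with filterByExpr, scaled by TMM and tested by edgeR 4.0.16 (quasi-likelihood) within each tissue, and over all 8 libraries for the interaction and the tissue contrasts, with p adjusted over every gene tested (Benjamini-Hochberg). A gene was called at an adjusted p under 0.05. SE is the log2 difference over the square root of F. Shares and ratios used the deposited FPKM, with exact permutation tests. Tests were tried on simulated data. For eWAT and the interaction, unlike liver, edgeR's adjusted p missed most or all of the genes changed there. A gene not called in these comparisons may still differ. Alternatives were DESeq2 1.42.0, limma 3.58.1 on quantile-normalized log2(FPKM + 1) and log2(FPKM + 0.1), other scalings and filters, the replicate number as a block, and each library left out in turn.

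The members and lists were chosen with earlier results of these data known. All members were named, and from each other list up to 4 genes with the smallest adjusted p in a comparison.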

Additional observations from a re-analysis of the deposited data

Results flagged for a closer look

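For 7 members the change by genotype differed between eWAT and liver by edgeR's interaction test. The gap in log2 units was 4.88 for Plin2, 4.34 for Lipe, 4.03 for Plin5, 3.89 for Plin4, 3.73 for Pnpla2, 3.004 for Mgll and 2.09 for Abhd5, with adjusted p of 0.0171, 0.0145, 0.0109, 0.0239, 0.0199, 0.0339 and 0.020. In the eWAT libraries the share of counts in adipocyte markers, 4.72% and 2.44% against 0.325% and 0.522%, moved with these gaps, and its part in them was not tested.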

How the results depend on the processing

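The count of 8 members called in eWAT was 7 to 9 with DESeq2, limma, upper-quartile or library-size scaling, no filter, 8 libraries in 1 fit or the epididymis markers removed. It was 1 (Plin3, lower) with scaling on adipocyte markers, where Plin5, Mgll, Abhd5 and G0s2 turned to -0.31, -0.22, -1.30 and -0.057, and it ranged from 0 to 8 with 1 library left out. In liver the count of 0 was 1 with DESeq2, 1 without a filter, and 0 to 2 with 1 library left out. The interaction count of 7 was 5 with library-size scaling and ranged from 0 to 8 with 1 library left out. The tissue count of 7 with the WT label ranged from 4 to 7 and that of 5 with the KO label from 5 to 7. Of all genes in liver, DESeq2 called 2.66% and edgeR without a filter 1.89%, against 0.0854% in the main fit. Library-size scaling called 4.52% of all genes for the interaction, against 6.94%. Between tissues it called 75.9% (WT label) and 45.7% (KO label), against 54.9% and 27.8%. Shares and ratios kept their side of the threshold with CPM in place of FPKM.

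With the replicate number as a block, 0 members and 0% of genes were called in eWAT. The 8 members called in the main fit kept log2 differences from 2.10 (Abhd5) to 4.07 (Plin2), with edgeR adjusted p from 0.0543 to 0.0683. The block gave 0 members called in liver, 8 for the interaction, and 7 (WT label) and 5 (KO label) between tissues. Deviations of samples with the same number correlated at 0.0086 to 0.153 over all pairs of groups. Only eWAT and liver of the same label could share a mouse. Their values were 0.0356 with the KO label and 0.153, the highest, with the WT label. No samples known to share a mouse were at hand for comparison, so these values cannot show whether the numbers pair mice. The main fits did not use the numbers, and the cause of the lost calls was not tested.

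The other log2 differences that changed sign had not been called. In liver, Abhd5 went from -0.05 to 0.069 and 0.076 with limma (pseudocounts 1 and 0.1), 0.039 with upper-quartile scaling and 0.0077 with library totals as the scale. With 1 library left out, liver values ranged from -0.49 to 0.25 in Plin3, -0.60 to 0.23 in Plin4, -0.46 to 0.10 in Pnpla2, -0.23 to 0.39 in Mgll, -0.19 to 0.086 in Abhd5 and -0.19 to 1.17 in G0s2. The interaction ranged from -0.57 to 0.19 in Plin3 and from -2.19 (without WT-labelled liver replicate 1) to 3.81 in Plin1. Between tissues with the WT label, Plin3 went to -0.062 with DESeq2 and ranged from -0.22 to 0.45 with 1 library left out, Pnpla2 went to 0.48 with limma, and Pnpla2 and Abhd5 went to 0.71 and 1.11 with library totals as the scale. With the KO label, Plin2 and Plin3 went to 0.74 and 0.15 with limma and to 0.85 and 1.02 with library totals, and ranged from -0.68 to 0.38 and from -0.43 to 0.27 with 1 library left out. The cause of these changes was not tested. With 2 libraries per group the spread rests on few degrees of freedom, and a fit without 1 library assumes that the lone library varies like the others.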
